A study of Homo sapiens with 19 samples.

Results

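The regions described here are all H3K27ac peaks on chromosomes 9 and 22 in the peak lists of 4 human leukaemia cell lines, 7842 of the 131110 peaks in these lists. A peak was a member if it lay on either chromosome, whatever its strength. HL-60 had 1346 members of 20814 peaks, Molm13 2195 of 35206, OCI-AML3 2242 of 37606 and K562 2059 of 37484. HL-60, Molm13 and OCI-AML3 come from acute myeloid leukaemia (AML), and K562 comes from chronic myeloid leukaemia. HL-60 and Molm13 were left untransduced. OCI-AML3 and K562 carried a dCas9-KRAB-mCherry vector, which encodes a repressor that needs a guide RNA to find its site, and an empty sgRNA vector with a BFP reporter, and were sorted for both colours. In OCI-AML3 and K562 the vectors and the line therefore cannot be told apart. Each line is 1 ChIP-seq library without a replicate, so no test between lines was possible. Intervals given below are 95% intervals that cover counting error only.

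H3K27ac is acetylation of lysine on histone H3 and marks active promoters and enhancers. ABL1, on the long arm of chromosome 9, encodes a tyrosine kinase, and BCR, on the long arm of chromosome 22, encodes its partner in the Philadelphia translocation. The translocation joins the front of BCR to the back of ABL1 and is the defining lesion of chronic myeloid leukaemia, and K562 is a classical carrier of the fusion, which it is known to hold in several copies. The segments that enter the fusion chromosome are chromosome 22 from its start into BCR and chromosome 9 from within ABL1 towards the end of the long arm. The short arm of chromosome 9 holds CDKN2A, a cell-cycle inhibitor gene that is often lost in leukaemia, together with its neighbour MTAP, a gene of methionine salvage. The number of copies of each segment was not measured here.

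The peaks carried the identity of their lines at marker genes elsewhere in the genome. K562 had a peak within 500 bp of a transcription start site (TSS) at 8 of 8 erythroid markers, among them GATA1 and the globin genes HBG1 and HBE1, and none of the 3 AML lines had a peak at any of them. Of 9 myeloid markers, K562 had a TSS peak at 3, HL-60 at 8 and Molm13 and OCI-AML3 at 9 each. The read depth of the libraries is unknown from these lists. The median fold enrichment over control was 3.60, 3.80 and 2.95 in the AML lines, in the order HL-60, Molm13 and OCI-AML3, and 2.85 in K562, so fold values are compared within a list and not between lines.

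Promoters on both sides of the fusion points and in the 9p21 locus are shown because the peaks around the fusion points and the K562 stretch without peaks on the short arm are described at them. The windows are RefSeq promoters (GRCh38, 250 bases before to 50 bases after a gene start), printed 5′ to 3′ on the strand of the gene, with each CpG in capitals. BCR is at chr22:23180259-23180558 (plus strand), and SMARCB1, a chromatin remodeller gene beyond BCR, is at chr22:23786716-23787015 (plus strand). The ABL1 window is at chr9:130835004-130835303 (plus strand), inside the gene, at the later of its start sites, and NUP214, a nuclear pore gene, is at chr9:131125336-131125635 (plus strand). The CDKN2A windows are at chr9:21974808-21975107 and chr9:21995275-21995574 (both minus strand) and MTAP is at chr9:21802386-21802685 (plus strand).
BCR: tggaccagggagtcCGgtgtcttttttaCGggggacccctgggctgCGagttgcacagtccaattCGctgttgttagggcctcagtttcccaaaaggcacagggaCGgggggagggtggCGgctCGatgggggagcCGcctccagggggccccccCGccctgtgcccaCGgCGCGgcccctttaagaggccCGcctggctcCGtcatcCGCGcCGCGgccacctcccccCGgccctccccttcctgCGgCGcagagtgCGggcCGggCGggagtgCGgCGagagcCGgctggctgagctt
SMARCB1: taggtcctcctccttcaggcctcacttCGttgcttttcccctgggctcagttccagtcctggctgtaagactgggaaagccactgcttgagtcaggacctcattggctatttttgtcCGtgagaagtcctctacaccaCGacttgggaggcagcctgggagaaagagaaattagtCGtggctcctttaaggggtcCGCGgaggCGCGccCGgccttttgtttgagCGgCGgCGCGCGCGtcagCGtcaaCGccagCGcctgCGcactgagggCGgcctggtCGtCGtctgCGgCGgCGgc
ABL1: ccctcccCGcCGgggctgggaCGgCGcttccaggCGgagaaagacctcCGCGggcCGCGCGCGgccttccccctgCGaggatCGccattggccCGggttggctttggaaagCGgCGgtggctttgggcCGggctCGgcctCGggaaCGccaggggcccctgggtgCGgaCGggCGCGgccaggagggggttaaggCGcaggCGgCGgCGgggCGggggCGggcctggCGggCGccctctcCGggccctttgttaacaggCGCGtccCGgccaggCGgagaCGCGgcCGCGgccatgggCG
NUP214: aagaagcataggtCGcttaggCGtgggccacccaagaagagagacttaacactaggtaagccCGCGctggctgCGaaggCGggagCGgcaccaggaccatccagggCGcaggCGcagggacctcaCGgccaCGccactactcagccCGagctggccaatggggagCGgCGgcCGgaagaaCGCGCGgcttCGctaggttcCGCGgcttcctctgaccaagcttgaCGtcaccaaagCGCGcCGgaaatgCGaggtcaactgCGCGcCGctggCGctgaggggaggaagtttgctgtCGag
CDKN2A, first window: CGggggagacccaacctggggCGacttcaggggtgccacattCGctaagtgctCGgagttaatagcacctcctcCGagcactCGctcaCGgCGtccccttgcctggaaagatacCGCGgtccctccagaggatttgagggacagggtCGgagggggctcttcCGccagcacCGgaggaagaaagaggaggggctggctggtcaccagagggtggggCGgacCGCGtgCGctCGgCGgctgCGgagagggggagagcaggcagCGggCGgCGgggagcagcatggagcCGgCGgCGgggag
CDKN2A, second window: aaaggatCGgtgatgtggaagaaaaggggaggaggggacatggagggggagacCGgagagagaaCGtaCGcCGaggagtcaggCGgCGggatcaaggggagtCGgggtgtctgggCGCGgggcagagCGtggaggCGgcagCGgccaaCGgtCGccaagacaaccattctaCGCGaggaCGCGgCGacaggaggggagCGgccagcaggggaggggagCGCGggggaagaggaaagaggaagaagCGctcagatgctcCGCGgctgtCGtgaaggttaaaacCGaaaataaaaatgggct
MTAP: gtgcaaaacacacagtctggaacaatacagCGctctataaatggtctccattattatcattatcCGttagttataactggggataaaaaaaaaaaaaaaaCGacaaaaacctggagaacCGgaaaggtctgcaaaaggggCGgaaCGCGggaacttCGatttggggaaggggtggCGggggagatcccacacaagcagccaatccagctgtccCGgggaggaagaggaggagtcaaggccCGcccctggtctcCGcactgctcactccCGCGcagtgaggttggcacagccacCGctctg

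The windows differed in CpG content. The ABL1 window had 42 CpG, more than 94.2% of the 34943 RefSeq promoter windows, and the MTAP window had 15, close to the median of 14. The BCR, SMARCB1, NUP214 and CDKN2A windows had 27, 25, 31, 26 and 28. The GC box GGGCGG, searched on both strands, was found in the BCR, SMARCB1, ABL1, MTAP and first CDKN2A windows and in 44.9% of all windows. The ETS motif CCGGAAG was found in the NUP214 window alone among them and in 10.2% of all windows.

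H3K27ac at these promoters differed between the lines. The SMARCB1 and NUP214 windows were under a peak in all 4 lines. The BCR window was under a peak in K562 and OCI-AML3 (fold enrichment 2.32 and 2.42) and not in HL-60 or Molm13. The ABL1 window was under a peak in HL-60, Molm13 and OCI-AML3 (fold enrichment 4.22, 5.99 and 3.53), while K562 had none there. The MTAP window had a peak in the 3 AML lines (4.17, 5.13 and 4.82) and none in K562. Both CDKN2A windows had a peak in HL-60 and OCI-AML3 and none in Molm13 or K562. Over chromosomes 9 and 22, 583 of 2241 promoter windows were under a peak in HL-60, and 787, 908 and 840 were in Molm13, OCI-AML3 and K562, and in each line the windows with a peak had a median of 28 or 29 CpG.

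Chromosome 9 took a smaller share of the K562 list than of any AML list. HL-60 had 839 peaks on it, Molm13 1480, OCI-AML3 1563 and K562 1344, or 4.04% (3.78 to 4.32), 4.21% (4.01 to 4.43), 4.16% (3.96 to 4.37) and 3.59% (3.41 to 3.78) of the peaks on chromosomes 1 to 22, X and Y. The K562 interval did not reach those of Molm13 and OCI-AML3 and touched that of HL-60 at its edge. Chromosome 22 held 507, 715, 679 and 715 peaks, or 2.44% (2.24 to 2.66), 2.03% (1.89 to 2.19), 1.81% (1.68 to 1.95) and 1.91% (1.78 to 2.05), so that K562 lay between OCI-AML3 and Molm13.

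Promoter peaks, those within 500 bp of a TSS, were more frequent on chromosome 22 than on chromosome 9 in every line. On chromosome 22 they made up 48.7% of the HL-60 peaks, 42.5% for Molm13, 49.3% for OCI-AML3 and 49.2% (45.6 to 52.9) for K562. On chromosome 9 the shares were 41.2%, 33.4%, 34.8% and 38.6% (36.0 to 41.2). On the short arm of chromosome 9 (up to 42 Mb), the promoter share was highest in HL-60 at 52.2%, followed by K562 at 43.6% and by Molm13 and OCI-AML3 at 35.1% and 34.7%.

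The K562 peaks of the 2 chromosomes were shared less with other lines than those of the AML lines. Of the chromosome 9 peaks, 52.6% (49.9 to 55.3) in K562 overlapped a peak of no other line, against 30.3%, 27.4% and 28.5% in HL-60, Molm13 and OCI-AML3. On chromosome 22 the share was 47.4% (43.8 to 51.1) in K562 and 28.2%, 23.5% and 20.9% in the AML lines. Distal peaks carried most of it. On chromosome 9, 72.6% of the K562 distal peaks and 20.8% of its promoter peaks were without an overlap, against 74.5% and 24.7% in its whole list. Both chromosomes were below the K562 list as a whole, in which 56.0% (55.5 to 56.5) overlapped no peak of another line.

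The segments around BCR and ABL1 were then compared as shares of each list. From the start of chromosome 22 to the end of BCR HL-60 had 98 peaks, Molm13 138, OCI-AML3 131 and K562 153, or 4.72, 3.93, 3.49 and 4.09 peaks per 1000 of the list. The K562 share was 1.04 times the median AML share (0.822 to 1.32), and it lay inside the range of the AML lines. In the 2 Mb after BCR the counts were 38, 43, 42 and 28, and the K562 share was 0.611 times the median AML share (0.366 to 1.01). In the 500 kb from the start of ABL1 the counts were 6, 10, 13 and 7 (ratio 0.648, 0.186 to 2.33), and in the 500 kb before it 4, 8, 5 and 8 (ratio 1.11, 0.297 to 5.04). By number of peaks, K562 thus showed no gain over the AML lines in the segment up to BCR. Of the chromosome 9 segment that enters the fusion, only the 500 kb from the start of ABL1 were counted here. Their interval was too wide to tell a gain from a loss, and the interval before ABL1 was wide as well.

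In the segment up to BCR, K562 had the lowest promoter share of the 4 lines and a distal share below that of HL-60 and above those of Molm13 and OCI-AML3. K562 had 1.90 promoter peaks and 2.19 distal peaks per 1000 there, against 2.17, 1.91 and 1.94 promoter peaks and 2.55, 2.02 and 1.54 distal peaks in HL-60, Molm13 and OCI-AML3. The distal share of K562 in the 2 Mb after BCR, 0.347 per 1000, was the lowest of the 4 lines, with 1.01, 0.825 and 0.612 in the AML lines, whereas its promoter share of 0.401 was close to that of Molm13 (0.398).

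The K562 peaks of these segments did differ in their strength. Their median fold enrichment was 2.46 up to BCR, below the list median of 2.85, while their median −log10 p was 5.42, above the list median of 4.58. In the other lines the fold enrichment up to BCR was 0.972 to 1.06 times the list median. Of the 153 K562 peaks up to BCR, 38 had a fold enrichment below 2, and such peaks made up 0.265% of the whole K562 list, 99 in all. Such peaks were not particular to K562, since they made up 0.390%, 0.108% and 0.351% of the HL-60, Molm13 and OCI-AML3 lists. HL-60 and Molm13 had none below 2 on either chromosome, and OCI-AML3 had 2.

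Fold enrichment is a ratio to the control, whereas the p-value also depends on how many reads lie under the peak. A relative −log10 p was therefore formed, as the −log10 p of a peak divided by the median of the 201 peaks of the same list nearest to it in fold enrichment, so that a value of 1 is typical of peaks of that fold. This measure and its limits were chosen after the values had been seen. Among 2 Mb bins with at least 10 peaks, K562 had a median relative −log10 p of 1.5 or more in 2 of 980 bins of the genome (0.204%), and both were among its 57 bins on chromosomes 9 and 22. They were the adjoining bins at 18 to 20 Mb and 20 to 22 Mb of chromosome 22, with medians of 1.91 and 1.95, and the highest value of any other K562 bin in the genome was 1.33. HL-60 and Molm13 had no such bin anywhere (0.0% of 798 and 0.0% of 1054). OCI-AML3 had 5 of 1060 (0.472%), none of them on chromosomes 9 or 22.

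Single peaks showed where the rise began and ended. In K562, 77 peaks of the whole list (0.206%) had a relative −log10 p of 2 or more, and 65 of them lay on these chromosomes, 55 on chromosome 22 and 10 on chromosome 9. The AML lines had 1, 0 and 1 such peaks on the 2 chromosomes, in the order HL-60, Molm13 and OCI-AML3, of 14, 11 and 162 in their whole lists. Joined where less than 1 Mb lay between them, the K562 peaks formed 5 runs of at least 3 peaks in the genome, 4 of them on chromosomes 9 and 22. OCI-AML3 formed 11 runs and HL-60 formed 1, all on other chromosomes.

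**Figure D1:**
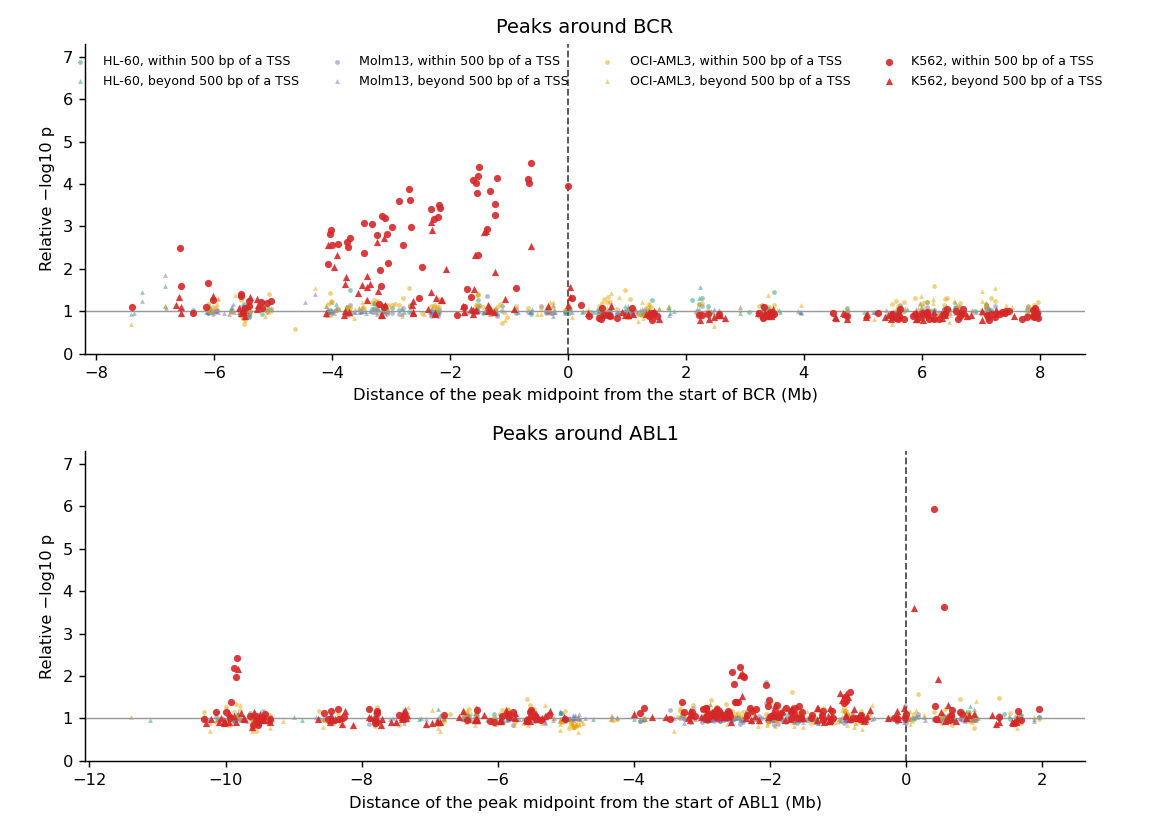
Relative −log10 p of each H3K27ac peak (y axis, no unit) against the distance of its midpoint from the start of BCR (upper panel) and ABL1 (lower panel) in Mb, with circles for peaks within 500 bp of a TSS, triangles for other peaks and the grey line at 1. K562 peaks (red) stand above the other lines in the Mb before BCR and just after the start of ABL1, with highest values of 4.49 and 5.93.

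The longest run covered 4.07 Mb of chromosome 22 (chr22:19107730-23181779), from DGCR2 to BCR, with 70 protein-coding genes. K562 had 107 peaks in it, of which 54 were at or above 2, and HL-60, Molm13 and OCI-AML3 had 61, 88 and 82 peaks with none at or above 2. The median relative −log10 p was 2.05 in K562 and 1.01, 0.985 and 1.09 in HL-60, Molm13 and OCI-AML3. Of the 54 raised K562 peaks, 43 were promoter peaks. Of the 32 K562 peaks with a fold enrichment below 2 in the run, 29 were distal.

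The −log10 p values behind the ratio are given by class of fold enrichment, as a description, since the run was delimited by peaks with a high −log10 p at their fold. From 1.5 to 2, the 32 K562 peaks in the run had a lower median (3.57) than the 60 elsewhere (3.96). From 2 to 2.5, the medians were 6.81 for 27 peaks in the run and 3.28 elsewhere. From 2.5 to 3, the median −log10 p was 12.0 for the 26 peaks in the run and 3.98 for the 14974 peaks elsewhere, whose 95th percentile was 5.66. From 3 to 3.5, the 12 peaks in the run lay between 8.60 and 23.2, and the median elsewhere was 5.95. From 3.5 to 4, the medians were 22.4 for 9 peaks in the run and 8.31 elsewhere, and the lowest of the 9, at 8.16, lay below the median elsewhere.

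**Figure D2:**
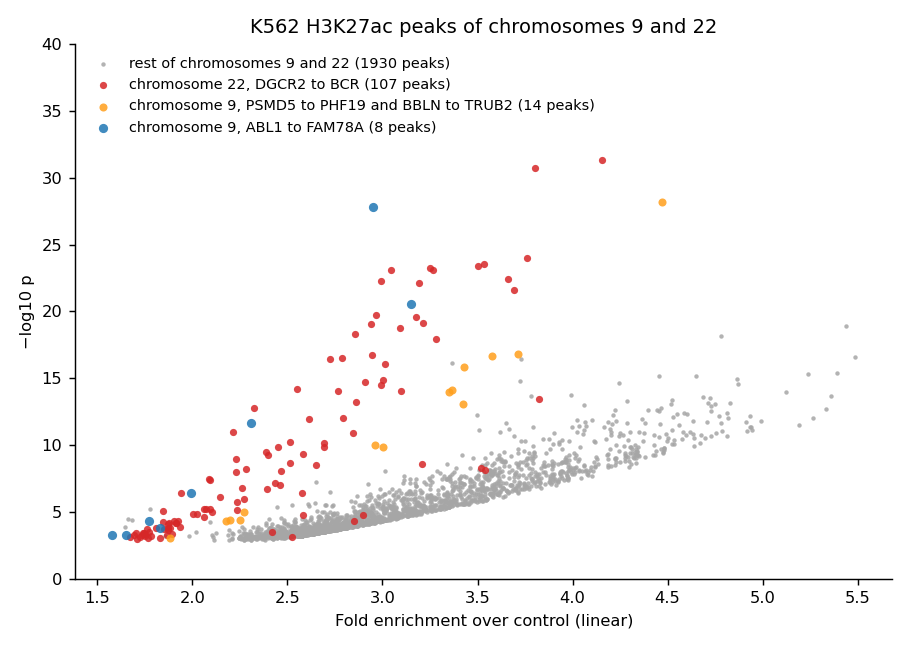
The −log10 p (y axis, no unit) against fold enrichment over control (x axis, linear) for the 2059 K562 peaks of chromosomes 9 and 22, each point a peak. Points of the run from DGCR2 to BCR (red, 107 peaks) and of the run from ABL1 to FAM78A (blue, 8 peaks) rise more steeply than the grey points, and 32 and 5 of them lie at a fold enrichment below 2; orange points (14 peaks) are the other runs of chromosome 9.

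In the run, K562 peaks at places where an AML line also had a peak differed from those that K562 had alone. The 55 shared peaks had a median fold enrichment of 2.76 and a median relative −log10 p of 2.90, and 42 of them were promoter peaks. The 52 peaks found in no AML line had a median fold enrichment of 1.92, 29 of them were below 2, and 11 were promoter peaks. Since 44 of the 99 K562 peaks below a fold enrichment of 2 lie on these chromosomes, they are part of their own reference, and the relative −log10 p says less for such weak peaks. Without peaks below a fold enrichment of 2, an alternative added after seeing the data, the K562 share up to BCR was 0.784 times the median AML share instead of 1.04.

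Among the promoter peaks of the run, the median relative −log10 p rose over successive windows of 1 Mb towards BCR, but not in the window at BCR itself. From 4.5 to 3.5 Mb before the start of BCR the median over 8 promoter peaks was 2.61. Over the next 3 windows of 1 Mb it was 2.82 (19 peaks), 3.31 (16 peaks) and 3.83 (9 peaks). From 0.5 Mb before to 0.2 Mb after the start of BCR, a window that reaches past the run, it was 2.63 (2 peaks). The medians of the distal peaks fell over the same windows of 1 Mb, at 1.52, 1.26, 1.19 and 1.14. Of these distal peaks 4 of 10, 8 of 15, 10 of 18 and 7 of 11 had a fold enrichment below 2. Since the relative value says less for such weak peaks, the fall is not read as a trend. This is a description over neighbouring peaks of 1 library.

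Named genes of this stretch serve as examples of its promoter peaks. CRKL, an adaptor protein that is a substrate of the BCR-ABL1 kinase, had a K562 promoter peak with a fold enrichment of 3.53, a −log10 p of 23.5 and a relative value of 3.18. In HL-60, Molm13 and OCI-AML3 the CRKL peak had relative values of 0.947, 0.962 and 1.14.

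PRAME, a tumour antigen gene, had the highest value on chromosome 22. Its K562 peak (chr22:22551498-22559818) had a fold enrichment of 3.05, a −log10 p of 23.1 and a relative value of 4.49, HL-60 and Molm13 had relative values of 0.935 and 0.977, and OCI-AML3 had no peak there. DGCR8, a microRNA-processing factor, had a relative value of 3.20 in K562 and of 1.01, 0.968 and 1.14 in HL-60, Molm13 and OCI-AML3. At each of these 3 promoters the K562 value was above 2, and no AML line reached 1.5. Since the run was delimited by K562 peaks at or above 2, these promoters are a description only.

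Of the 15 genes listed from this segment, K562, OCI-AML3 and Molm13 had a TSS peak at 13 each and HL-60 at 11. YPEL1 had none in K562 or HL-60, and RAB36, next to BCR, had none in any line. Over all 97 protein-coding genes up to the end of BCR, 57 had a TSS peak in K562 (58.8%) and 41, 48 and 55 in HL-60, Molm13 and OCI-AML3. In the genome the share was 55.9% in K562 and 44.7%, 53.9% and 57.7% in HL-60, Molm13 and OCI-AML3. GP1BB, a platelet glycoprotein gene, and ARVCF, TUBA3FP, P2RX6, CCDC116 and ZNF280A had one in K562 alone. They are 6.19% of the genes of the segment, and 4.78% of all protein-coding genes had a TSS peak in K562 alone. They were chosen after their values were seen.

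The last raised peak on chromosome 22 lay at the start of BCR. The BCR promoter peak of K562 (chr22:23179348-23181779, over the BCR promoter printed above) had a fold enrichment of 2.32, a −log10 p of 12.8 and a relative value of 3.95. The same promoter in OCI-AML3 had a −log10 p of 3.68 at a fold enrichment of 2.42 and a relative value of 1.07. Within the gene K562 had 4 more peaks, all with a fold enrichment between 1.64 and 1.78, the last at chr22:23249996-23251351. The next K562 peak lay beyond the gene at chr22:23402930-23403413 and had a fold enrichment of 2.78 and a relative value of 1.14.

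Beyond BCR the relative −log10 p of the K562 peaks was near 1 again. In the 2 Mb after the gene the median relative −log10 p was 0.920, the highest single value was 1.14 and no peak was below a fold enrichment of 2. The median fold enrichment (3.31) and median −log10 p (5.92) of these peaks were above the list medians of 2.85 and 4.58. Of the 9 genes listed there, K562 and Molm13 had TSS peaks at 5 (55.6%) and HL-60 and OCI-AML3 at 8 (88.9%). Of all 36 protein-coding genes in these 2 Mb, 13 had a TSS peak in K562 (36.1%, 22.5 to 52.4). HL-60 had 16 (44.4%), Molm13 15 (41.7%) and OCI-AML3 19 (52.8%). The K562 share was the lowest, but its interval overlapped those of the AML lines. In the genome the shares were 55.9% and 53.9% in K562 and Molm13, and 44.7% and 57.7% in HL-60 and OCI-AML3. The K562 interval in these 2 Mb lay below its genome share. SMARCB1 had a relative value of 0.907 in K562, and MIF, a cytokine gene, had 0.879. DERL3, a gene of protein degradation in the endoplasmic reticulum, had a TSS peak in the 3 AML lines and none in K562.

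On chromosome 9 the change lay inside ABL1. The K562 peak at the first ABL1 promoter (chr9:130712313-130714824) had a fold enrichment of 3.17, a −log10 p of 6.38 and a relative value of 1.11. The next K562 peak, in an intron of ABL1 (chr9:130824056-130826048), had a lower fold enrichment of 2.31, a −log10 p of 11.7 and a relative value of 3.59. No AML line had a peak at that place. It ended 9206 bp before the nearest ABL1 start site, the one in the ABL1 window above, where the AML lines had a peak and K562 had none.

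The highest relative value on either chromosome was at the promoter of NUP214. Its K562 peak (chr9:131124485-131128957) had a fold enrichment of 2.95, a −log10 p of 27.8 and a relative value of 5.93. HL-60, Molm13 and OCI-AML3 had peaks there with fold enrichments of 5.27, 6.19 and 3.93 and relative values of 0.992, 0.972 and 1.14. The run ended with a peak over FAM78A (chr9:131269453-131278643), 9191 bp wide in K562, with a relative value of 3.63.

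Within this run of 0.455 Mb K562 had 8 peaks, 5 of them with a fold enrichment below 2, and HL-60, Molm13 and OCI-AML3 had 7, 10 and 11 with none below 2. The K562 peaks beyond FAM78A had relative values near 1 again, such as 1.07 for PRRC2B. Before ABL1 the values were near 1 as well, with 1.01 for EXOSC2, an exosome subunit gene, and 1.02 for FUBP3. Of the 13 genes listed around ABL1, K562 had a TSS peak at 6 (46.2%), HL-60 at 8 (61.5%) and Molm13 and OCI-AML3 at 9 (69.2%). Over all protein-coding genes the shares were 55.9% in K562 and 44.7%, 53.9% and 57.7% in HL-60, Molm13 and OCI-AML3. ASS1, QRFP and RAPGEF1 had a TSS peak in each AML line and none in K562, as had 2.22% of all protein-coding genes.

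K562 had 2 other, shorter runs on chromosome 9. The first covered 56.8 kb from PSMD5, a proteasome subunit gene, to PHF19, a Polycomb-associated gene (chr9:120841787-120898621), and K562 had a median relative −log10 p of 2.17 over 5 peaks, with 2.43 at PHF19. The AML lines had 5 peaks each, with medians of 1.02, 1.04 and 1.05. The second covered 0.149 Mb from BBLN to TRUB2 (chr9:128158802-128308105), where K562 had a median of 1.82 over 9 peaks and the AML lines had 0.986, 1.00 and 1.08. In contrast to the runs at BCR and ABL1, the median fold enrichment there was above the K562 list median, at 1.18 and 1.04 times that value. Since these runs too were delimited by K562 peaks with a relative value at or above 2, their medians are a description only. What lies behind the 4 runs was not tested.

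Bins of 2 Mb were compared between the lines over both chromosomes. A bin was called where the share of a line was at least 2-fold above, or at most 0.5 times, that of every other line, among bins with at least 20 peaks in all. Of 65 such bins, the K562 share was higher in 1 (1.54%) and lower in 9 (13.8%), while over the 1227 bins of the genome 4.24% were higher and 10.8% lower. The lower bins were thus near the genome-wide frequency. HL-60 had 0 higher bins (1.71% in the genome) and 1 lower bin (5.38%), Molm13 had 0 (0.0%) and 1 (0.407%), and OCI-AML3 had 0 (0.815%) and 1 (0.896%), each of the lower bins on chromosome 9.

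**Figure D3:**
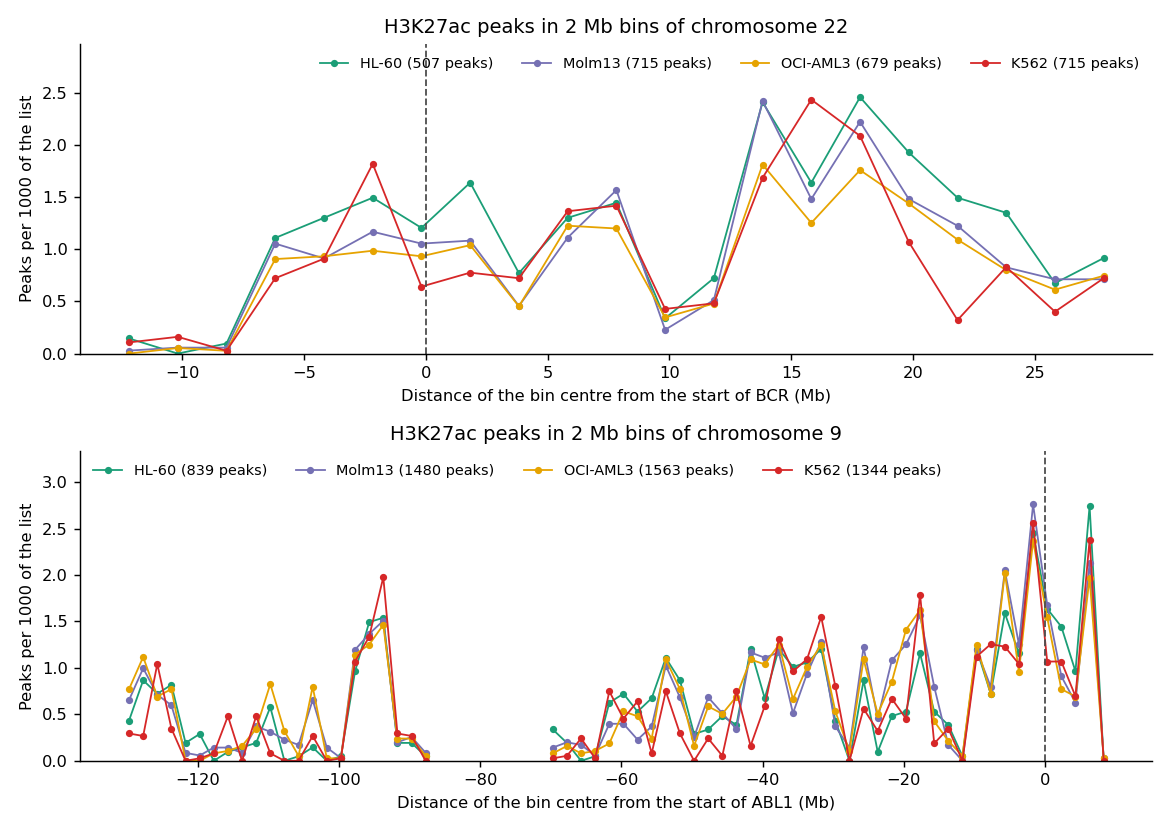
H3K27ac peaks per 1000 peaks of each list (y axis) in 2 Mb bins along chromosome 22 (upper panel) and chromosome 9 (lower panel), by the distance of the bin centre from the start of BCR or ABL1 in Mb (dashed line); the centromeric part of chromosome 9 without peaks is left blank. The 4 lines rise and fall together, K562 (red) is the lowest in the bins that hold BCR and ABL1, and it is above the AML lines at 1.82 in the bin before that of BCR.

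The bin just before that of BCR, at 20 to 22 Mb of chromosome 22, had a higher share in K562 than in any AML line. HL-60 had 31 peaks in it, Molm13 41, OCI-AML3 37 and K562 68, and the K562 share was 1.22 times that of HL-60 (0.785 to 1.93), 1.56 times that of Molm13 (1.04 to 2.35) and 1.85 times that of OCI-AML3 (1.22 to 2.83). It was not called. Of the 68 K562 peaks, 34 were promoter peaks and 25 had a fold enrichment below 2. Uncalled bins elsewhere stood further above the highest AML share, with 1.58 times that share at 122 to 124 Mb of chromosome 9 and 1.49 times at 38 to 40 Mb of chromosome 22. The latter had 34, 52, 47 and 91 peaks, and its K562 median relative −log10 p was 0.911.

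The share of the short arm of chromosome 9 was lower in K562 than in each AML line. HL-60 had 186 peaks on the arm, Molm13 348, OCI-AML3 392 and K562 312, or 8.95, 9.90, 10.4 and 8.34 per 1000. The K562 share was 0.931 times that of HL-60 (0.774 to 1.12), 0.842 times that of Molm13 (0.720 to 0.984) and 0.799 times that of OCI-AML3 (0.686 to 0.930). The long arm (from 68 Mb) showed a decrease of like size, with 640, 1109, 1153 and 1019 peaks and a K562 share of 0.884 times the median AML share (0.800 to 0.977), so the lower share was not particular to the short arm. With peaks of a q-value below 0.001 only, the ratio for the long arm was 1.01.

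Within the short arm, the kind of peak that was fewer in K562 depended on the AML line. The distal share of K562, 4.70 per 1000, was below 6.43 in Molm13 and 6.81 in OCI-AML3 and above 4.28 in HL-60. Its promoter share, 3.63, was close to 3.47 in Molm13 and 3.62 in OCI-AML3 and below 4.67 in HL-60. Of 82 genes on the arm with a TSS peak in all 3 AML lines, 76 had one in K562 (92.7%, 84.9 to 96.6), close to the genome at 94.8%. Among the 26 listed genes, those for JAK2, a cytokine receptor kinase, SMARCA2, KDM4C and RPS6 had a TSS peak in every line.

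The bin with MLLT3, MTAP and CDKN2A was among the 9 lower bins and was not the lowest of them. Its K562 share was 0.139 times the median AML share. On the long arm this ratio was 0.106 at 84 to 86 Mb, 0.137 at 88 to 90 Mb and 0 at 80 to 82 Mb. In this bin of the short arm, at 20 to 22 Mb, HL-60 had 12 peaks, Molm13 11, OCI-AML3 31 and K562 3. The K562 share was 0.139 (0.0251 to 0.514), 0.256 (0.0459 to 0.969) and 0.0972 (0.0190 to 0.311) times theirs. The promoter counts were 7, 5, 8 and 1. The 1 K562 promoter peak was at FOCAD, and the K562 list then had no peak for 6.20 Mb (chr9:20693048-26889418), the longest stretch of the arm without a peak. In that stretch HL-60 had 11 peaks, Molm13 29 and OCI-AML3 53.

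At the genes of this stretch the AML lines differed among themselves. MTAP and KLHL9 had a TSS peak in all 3 AML lines. CDKN2A had TSS peaks in HL-60, with a fold enrichment of up to 6.67, and in OCI-AML3, with up to 3.43, and none in Molm13. CDKN2B, the neighbouring inhibitor gene, had one in OCI-AML3 alone. The interferon genes IFNA1, IFNB1 and IFNE had no TSS peak in any line. HL-60 had a gap of its own, 4.00 Mb long, that began at CDKN2A (chr9:21996401-25994268), and in it Molm13 had 12 peaks, OCI-AML3 13 and K562 0.

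Across the 9 lower bins together both distal and promoter peaks had a lower share in K562, and the distal peaks more so. They held 101 distal and 44 promoter peaks in HL-60, 165 and 57 in Molm13, 174 and 60 in OCI-AML3, and 24 and 30 in K562. The distal share was 4.86, 4.70, 4.63 and 0.641 per 1000, and the promoter share was 2.12, 1.62, 1.60 and 0.802. Promoter peaks accordingly made up 55.6% in K562 and 30.3%, 25.7% and 25.6% in the AML lines. Since these bins were chosen for a low K562 share, the values are a description.

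**Figure D4:**
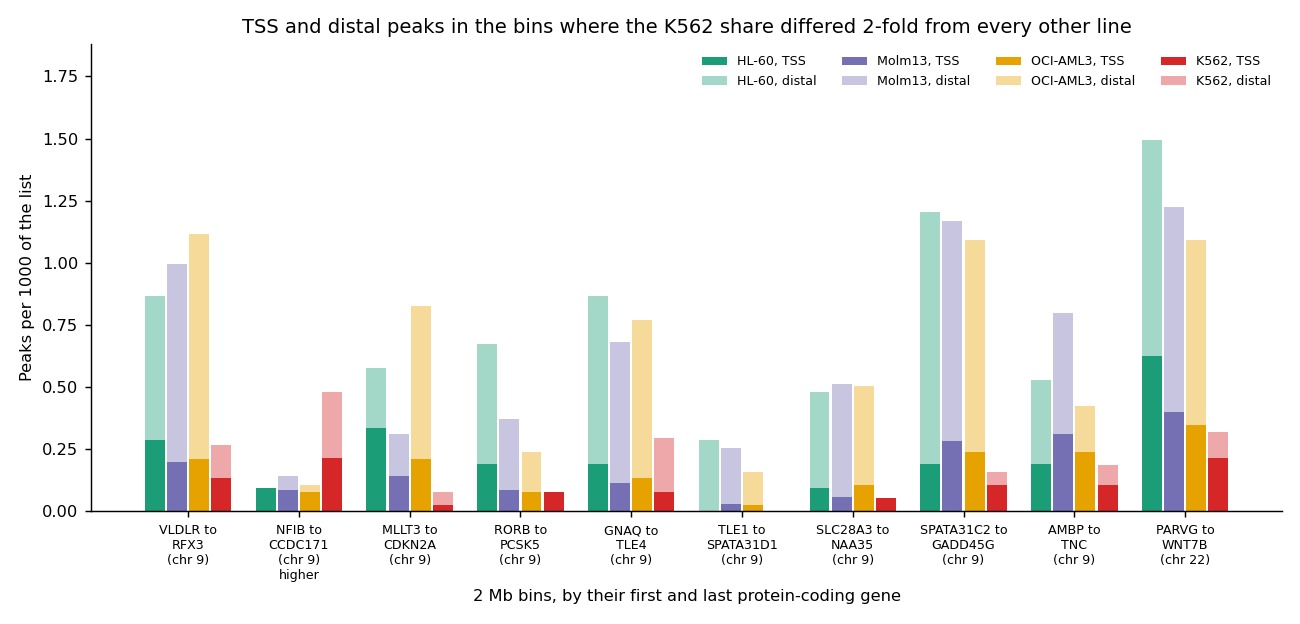
TSS peaks (dark) and distal peaks (pale) per 1000 peaks of each list (y axis, stacked bars) in the 10 bins of 2 Mb where the K562 share was called, named by their first and last protein-coding gene (x axis). In the 9 lower bins the pale part of the K562 bar is short or missing, and in the bin from NFIB to CCDC171 the K562 bar is the tallest.

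TSS peaks were both present and missing at the genes of the lower bins. The bin at 88 to 90 Mb of chromosome 9 held 25, 41, 41 and 6 peaks in HL-60, Molm13, OCI-AML3 and K562. SEMA4D, a semaphorin of leukocytes, had a TSS peak in each AML line and not in K562, and CKS2, a cell-cycle gene, had one in all 4. At 84 to 86 Mb the counts were 10, 18, 19 and 2, and both K562 peaks were promoter peaks, of AGTPBP1 and NAA35. At 80 to 82 Mb they were 6, 9, 6 and 0, and a count of 0 allows up to 0.0802 peaks per 1000 in K562. The K562 list had no peak from 78314715 to 83622876, a stretch of 5.31 Mb around TLE4, a corepressor gene with a TSS peak in each AML line.

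The lower bin of chromosome 22, at 44 to 46 Mb, had 31, 43 and 41 peaks in HL-60, Molm13 and OCI-AML3, against 12 in K562. The K562 share was 0.215 (0.100 to 0.430), 0.262 (0.126 to 0.506) and 0.294 (0.141 to 0.570) times theirs. PARVG, the parvin of blood cells, had a TSS peak in each AML line with fold enrichments of 9.67, 8.50 and 5.45 and none in K562. NUP50, KIAA0930, FAM118A and ATXN10 had a TSS peak in all 4 lines.

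The single higher bin lay on the short arm, at 14 to 16 Mb of chromosome 9. K562 had 18 peaks there, HL-60 2, Molm13 5 and OCI-AML3 4, and the K562 share was 3.38 times that of Molm13 (1.21 to 11.6) and 4.52 times that of OCI-AML3 (1.49 to 18.4), with a ratio of 5.00 to HL-60. Of the K562 peaks 8 were promoter and 10 distal peaks. The strongest (chr9:14522112-14532843) lay at a TSS of a transcript that is not protein-coding, 123129 bp from the nearest coding TSS, that of NFIB. It had a fold enrichment of 4.94 and was found in no AML line. NFIB, a nuclear factor I gene, had TSS peaks in K562 (fold enrichment up to 3.59) and OCI-AML3 (2.43). PSIP1, a chromatin reader gene, had one in all 4 lines.

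Of 26 listed blood cell genes on these chromosomes, HL-60 had a TSS peak at 17 (65.4%), Molm13 and OCI-AML3 at 20 each (76.9%) and K562 at 15 (57.7%). Over all protein-coding genes the shares were 44.7% in HL-60, 53.9% and 57.7% in Molm13 and OCI-AML3, and 55.9% in K562, so the K562 count was close to that over all genes. NCF4, a subunit of the phagocyte oxidase, had fold enrichments of 8.71, 8.58 and 5.31 in HL-60, Molm13 and OCI-AML3, and CSF2RB, the common receptor chain for GM-CSF and IL-3, had 4.59, 4.96 and 3.46. Neither had a TSS peak in K562, nor did TLR4, a receptor for lipopolysaccharide, which had 3.41, 3.80 and 4.14 in the AML lines. GFI1B, a repressor of erythroid and megakaryocyte cells, had a TSS peak in every line, with 2 in K562 and 1 in each AML line. HEMGN, a gene of erythroid cells that was not on the list and was chosen after its values were seen, had one in K562 alone.

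Over all 777 protein-coding genes of chromosome 9, 439 had a TSS peak in K562 (56.5%, 53.0 to 59.9), and of 447 on chromosome 22, 277 (62.0%, 57.4 to 66.3). Of 327 chromosome 9 genes with a TSS peak in all 3 AML lines, 307 had one in K562 (93.9%, 90.7 to 96.0), and of 197 on chromosome 22, 184 (93.4%, 89.0 to 96.1). Both shares were close to the 94.8% of the genome. On chromosome 9, 32 genes had a TSS peak in K562 alone (4.12%) and 20 in the 3 AML lines and not in K562 (2.57%). On chromosome 22 the numbers were 28 (6.26%) and 13 (2.91%), and in the genome 957 (4.78%) and 444 (2.22%) of 20033.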

How the data were processed

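Trimming with Trim Galore, alignment to hg38 with Bowtie2, a filter for uniquely mapped reads and peak calling with MACS2 2.1.1 (q-value of 0.05, broad option) were performed by the authors, per sample. The control library is not given in the sources used here. Each deposited peak carries a score, a fold enrichment over control (a ratio), a −log10 p and a −log10 q-value, all taken as deposited. The largest q-value in the deposited lists was 0.0995, and 5.46% to 15.0% of a list exceeded 0.05. All peaks were kept. Peaks off chromosomes 1 to 22, X and Y, 207 in all, were left out of shares.

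A peak was placed by its midpoint in a bin of 2 Mb or a segment set by the GENCODE v44 ends of BCR and ABL1, and divided by its list. Promoter peaks lay within 500 bp of an annotated transcript start. Peaks were shared with 1 bp of overlap. Intervals are Wilson intervals for shares and exact conditional binomial intervals for ratios. The code for the bin calls and the relative −log10 p was run on simulated data. The planted changes were larger, and the bins fuller, than the limits used here. No simulated peak had a fold enrichment below 2, so such peaks were not covered. The dCas9 peaks and the other samples of the series were not analysed here. The regions, gene lists and limits were chosen with earlier results of these data known. Genes were named from lists for the BCR, ABL1, short-arm and blood cell loci, and the genes of called bins and runs were named after their values were seen. Python 3.11.15, pandas 2.3.3, SciPy 1.17.1 and matplotlib 3.10.9 were used.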

Additional observations from a re-analysis of the deposited data

How the results depend on the processing

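No paired analysis was possible because each line had 1 library with a deposited list and no test was made. Read depth is unknown, and list length differs between lines. With a q-value below 0.001, the long-arm ratio of K562 to the median AML share turned from 0.884 to 1.01, higher bins rose from 1 to 2, and the K562 promoter shares of chromosomes 9 and 22 rose to 63.2% and 70.9%. With the same number of strongest peaks in each line these shares were 56.0% and 62.1%, and no bin was higher. With a TSS distance of 1000 bp the chromosome 9 share was 41.6%. The count of higher and lower bins was 4 and 15 with 1 Mb bins (of 106 bins) and 2 and 14 with no minimum of peaks (of 83). Higher bins were 0 with bins moved by 1 Mb and 3 with a fold of 1.5. Chosen after seeing the data, a fold enrichment of at least 2 gave a ratio of 0.784 for the segment up to BCR and a median relative −log10 p of 2.71 in the run before BCR, and −log10 q in place of −log10 p gave 3.15 in that run, against 2.05. The count of raised bins was 2 under both of these choices, with 401 neighbours and with a reference without chromosomes 9 and 22, and was not computed under the others. The run was delimited by K562 peaks with a high relative −log10 p, so its median is a description under each choice. The causes were not tested. A further 53 alternative values stayed within their interval or within 1.5 times their count.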
